A study of Mus musculus with 4 samples.

Results

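Oligodendrocyte precursor nuclei were examined in mouse forebrain after permanent middle cerebral artery occlusion (MCAO), a stroke model in which the artery is coagulated and transected. Single-nucleus RNA sequencing gave 4 libraries, labelled sham control, day 1, day 3 and day 7 after MCAO, each made from 3 pooled forebrain hemispheres of 3 month old male C57Black/6 mice. With 1 library per group there was no replicate, so no test was possible and no p-value is given. Every interval is a 95% interval for counting error only. It leaves out the spread between nuclei, animals and dissections.

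Oligodendrocyte precursors are the dividing glia of the adult brain that give rise to the myelinating cells. They depend on the PDGF receptor alpha, carry the proteoglycan NG2 and receive synapses from neurons. On the way to differentiation they pass through a short committed state marked by Gpr17, and after injury they are known to divide and to gather at the lesion.

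Members were selected on measured values of 6 genes. A barcode was a member when it held over 1000 UMIs (unique molecular identifiers, the count of captured transcripts), at least 4 UMIs and at least 0.1% of its UMIs from Pdgfra, Vcan, Cspg4 and Neu4 together, at least 1 UMI of Pdgfra, Cspg4 or Neu4, and at least 3 UMIs of Lhfpl3 and Pcdh15 together. This gave 214 nuclei out of 8909 barcodes over 1000 UMIs, with 53 in sham, 32 at day 1, 87 at day 3 and 42 at day 7. The levels of these 6 genes chose the nuclei and are no result. At the edge of the rule, 15 members held exactly 4 marker UMIs, 10 of them at day 3, and 7 other barcodes missed the rule only by holding 3.

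Some facts bear on every value below. In the supplement of the study the nuclei of day 7 outnumber those of the other days, while among the deposited libraries the one labelled day 3 is the largest. The deposited labels were kept. Under them Spp1, a gene of reactive microglia, was at 14.2 times its sham level at day 3 (9.59 to 22.0) and 3.95 times at day 7 (2.52 to 6.39) in neuron-like barcodes. Whether the labels of day 3 and day 7 are exchanged was not tested. The control library is labelled as sham, while the description of the surgery names cortex of intact mice as the control and the description of the extraction names injured hemispheres. Libraries held between 23285489 and 42963698 UMIs in all. No member barcode occurred as a member in more than 1 library. Free RNA, estimated from neuron markers against the profile of barcodes of 10 to 500 UMIs, made up at most 17.6% of the members' UMIs in sham, 25.1% at day 1, 27.8% at day 3 and 25.8% at day 7. The same estimate from choroid plexus markers gave 7.31%, 7.90%, 16.1% and 7.32%. In a sum over nuclei, a gene that is on in fewer nuclei and a gene that is lower in each nucleus cannot be told apart.

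The share of precursor nuclei was about the same in the 4 libraries. They were 53 of 2226 barcodes over 1000 UMIs in the sham library, or 2.38% (1.79% to 3.10%, Clopper-Pearson). The share was 2.66% (1.83% to 3.73%) at day 1, 2.33% (1.87% to 2.87%) at day 3 and 2.41% (1.74% to 3.24%) at day 7. All 4 intervals overlap, so no difference was detectable at these counts. The share among barcodes that were not neuron-like ran from 6.39% at day 3 to 7.49% at day 1. Depth differed more than the share did. The median member held 3806 UMIs in sham, 5270 at day 1, 3317 at day 3 and 3699 at day 7, and the neuron-like barcodes of the same libraries were also deepest at day 1, with a median of 13173 UMIs against 8496 in the sham library.

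**Figure D1:**
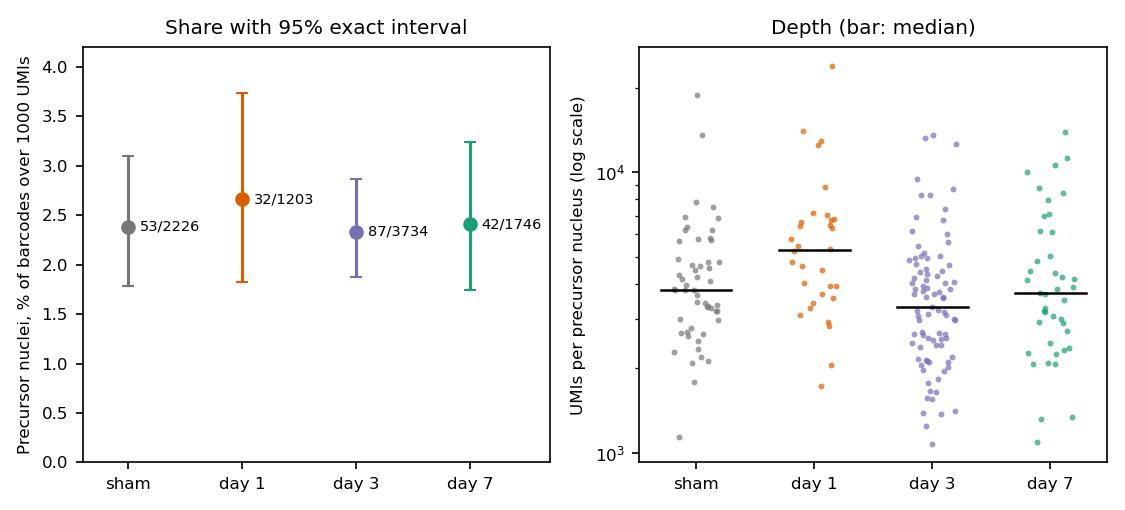
Left, the share of barcodes over 1000 UMIs that were precursor nuclei in each library, with exact 95% intervals and the counts beside each point. Right, the UMIs of each precursor nucleus on a log scale, with the median as a bar. The shares lie between 2.33% and 2.66% with overlapping intervals, and the median depth is highest at day 1.

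The label of the nuclei was checked with 20 precursor genes that the rule did not use. A UMI was found in at least 90% of members for 7 of the 20 genes, and in under 50% for 6. Tnr (tenascin R, a matrix glycoprotein) was seen in 213 of 214 members, Dscam in 213, Ptprz1 (a phosphatase and proteoglycan) in 212, Xylt1 (the enzyme that starts proteoglycan chains) in 212 and Sox6 in 208. The lineage transcription factors were seen less often, with Sox10 in 149 of 214 members, Olig1 in 75 and Olig2 in 71. Tnr lay at 3748 counts per 1000000 UMIs (CPM) in the sham members, 3763 at day 1, 3863 at day 3 and 3953 at day 7, against 70.8 to 130 CPM in the mature oligodendrocyte-like barcodes of the 4 libraries.

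Markers of other cells were read beside this. The summed level of 10 neuron markers in the members was 1042 CPM (916 to 1180) in the sham library, 1396 (1237 to 1570) at day 1, 1646 (1513 to 1787) at day 3 and 1479 (1312 to 1661) at day 7. Of 10 endothelial markers, 5 were at 0 in the sham members, 7 at day 1, 1 at day 3 and 9 at day 7, and their summed level was 37.8 CPM (17.3 to 71.8), 15.0 (3.10 to 43.9), 195 (151 to 248) and 5.19 (0.131 to 28.9). Microglial markers lay between 223 and 429 CPM, astrocyte markers between 901 and 1427 CPM, and both were under their level in free RNA in each library. Astrocyte markers were at 57.2% to 74.5% of that level and microglial markers at 43.9% to 68.8%. These lie above the free RNA share of 17.6% to 27.8% estimated from neuron markers, and the source of the excess was not tested. In 18 members, the markers of another class reached the member's own 6 marker genes, and these are called mixed nuclei below. There were 3 mixed nuclei in sham, 1 at day 1, 11 at day 3 and 3 at day 7.

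Nuclei with a dividing profile were present in every library and were few. The list for proliferation held 34 genes of DNA replication and mitosis. In the sham library 1 nucleus of 53 held UMIs of 18 of these genes, and the next highest member held 4. At day 1, 1 nucleus of 32 held 23 genes and the next highest held 5. At day 3, 4 of 87 nuclei held 12, 17, 19 and 24 genes, and the next highest held 6. At day 7, 1 of 42 nuclei held 20 genes and the next highest held 5. The gap left the same 7 nuclei on one side of any limit between 7 and 12 genes.

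As shares, nuclei with at least 8 proliferation genes were 1.89% (0.0478% to 10.1%) in the sham library, 3.13% (0.0791% to 16.2%) at day 1, 4.60% (1.27% to 11.4%) at day 3 and 2.38% (0.0603% to 12.6%) at day 7. The 4 intervals overlap, so no change in the share was detectable with so few nuclei. With each nucleus thinned to 2000 UMIs, and shallower nuclei left out, the counts were still 1 of 51, 1 of 31, 4 of 74 and 1 of 39. Among neuron-like barcodes thinned in the same way there were 0 of 1400 in the sham library, 0 of 702 at day 1, 0 of 2092 at day 3 and 0 of 1071 at day 7, which allows shares of up to 0.214%, 0.427%, 0.143% and 0.280%. Full depth gave 0 of 1440 neuron-like barcodes in sham, 4 of 776 at day 1, 8 of 2373 at day 3 and 1 of 1127 at day 7. Astrocyte-like barcodes at full depth had 4 of 251 at day 3, or 1.59% (0.436% to 4.03%), which overlaps the members' interval. Thinned, they had 0 of 177 at day 3. A looser limit of 2 genes could not be read. It took 18.9%, 34.4%, 31.0% and 31.0% of the members in the 4 libraries, and 37.3%, 56.8%, 30.0% and 41.1% of the much deeper neuron-like barcodes.

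**Figure D2:**
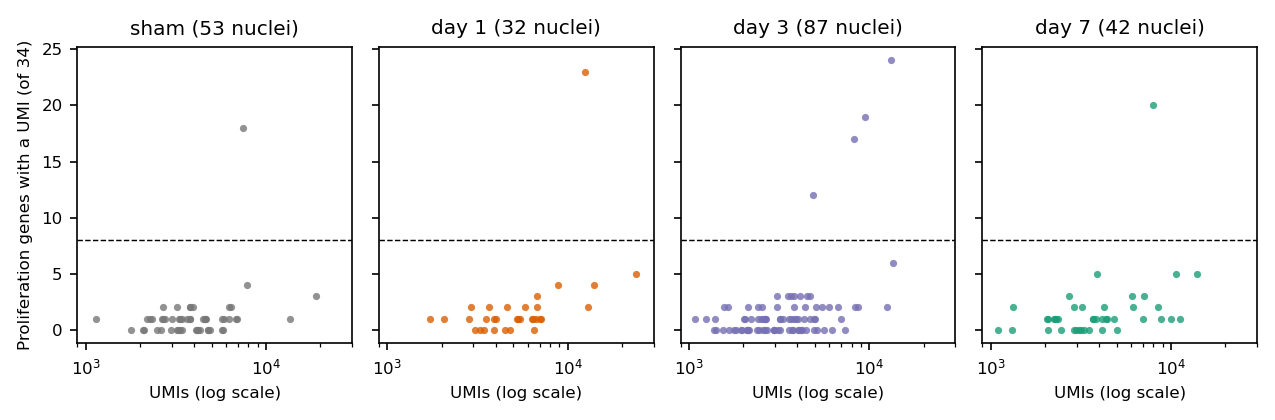
Each point is a precursor nucleus, with its UMIs on a log scale against the number of the 34 proliferation genes of which it held a UMI, in 1 panel per library. The dashed line marks 8 genes. A single nucleus stands above it in the sham, day 1 and day 7 panels, and 4 stand above it at day 3.

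Top2a, the topoisomerase that untangles chromosomes before mitosis, was seen in all 7 of these nuclei with 67 UMIs. Ect2, an exchange factor for cytokinesis, and Knl1, a kinetochore scaffold listed in the files as Casc5, were also seen in all 7. Mki67, Cenpf, Cenpe, Kif11, Birc5, Diaph3 and Ncapg were each seen in 6 of 7, while the replication helicase genes Mcm3, Mcm5 and Mcm6 were seen in 0, 1 and 1. The 7 nuclei were deep, with 4859 to 13228 UMIs each. None was a mixed nucleus and none was removed by the doublet caller Scrublet. However, 1 of the day 3 nuclei held 94 UMIs of mature oligodendrocyte markers beside 98 of its own, another day 3 nucleus held 36 neuron marker UMIs beside 41, and the sham nucleus held 30 astrocyte marker UMIs beside 52. Their part in the result was not tested.

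The promoters of the 3 genes seen in all 7 nuclei are shown because genes of this phase are known to share short elements there. The runs below are the 250 bases before the start site in RefSeq, on build GRCm38.p6, 5′ to 3′ on the gene's strand. Capitals mark TTTGAA, the core of the cell cycle homology region, and CCAAT, the box bound by NF-Y, each on either strand (TTCAAA and ATTGG). Top2a lies on the minus strand at chr11:99024190-99024439, Ect2 on the minus strand at chr3:27153879-27154128 (1 of 2 starts listed), and Knl1 on the plus strand at chr2:119046869-119047118.
Top2a: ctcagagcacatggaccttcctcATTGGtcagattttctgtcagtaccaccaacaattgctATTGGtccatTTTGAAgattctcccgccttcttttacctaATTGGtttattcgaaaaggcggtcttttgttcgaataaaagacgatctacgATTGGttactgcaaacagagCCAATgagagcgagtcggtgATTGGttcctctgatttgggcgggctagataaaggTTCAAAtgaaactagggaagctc
Ect2: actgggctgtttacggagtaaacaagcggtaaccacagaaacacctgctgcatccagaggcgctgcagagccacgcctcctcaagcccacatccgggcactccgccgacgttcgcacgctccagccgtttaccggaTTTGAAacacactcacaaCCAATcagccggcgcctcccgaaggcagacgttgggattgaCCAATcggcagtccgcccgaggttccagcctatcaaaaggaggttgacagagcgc
Knl1: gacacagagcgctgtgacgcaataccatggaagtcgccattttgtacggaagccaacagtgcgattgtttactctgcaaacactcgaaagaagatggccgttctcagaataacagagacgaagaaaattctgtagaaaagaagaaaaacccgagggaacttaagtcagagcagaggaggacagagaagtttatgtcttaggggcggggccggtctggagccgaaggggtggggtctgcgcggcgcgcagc
Top2a held 2 matches to TTTGAA and 6 to CCAAT, Ect2 held 1 and 2, and Knl1 held 0 and 0 in this window. Of the 34 proliferation genes, 29 were matched in the promoter table. CCAAT was found in 21 of the 29 (72.4%) and in 33.8% of all 32851 promoters of this length. TTTGAA was found in 8 of the 29 (27.6%) and in 5252 of all 32851 promoters. A match of letters is a description and not a site.

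The summed level of the proliferation list, to which these few nuclei gave many of the UMIs, was higher after MCAO. It was 403 CPM (327 to 493) in the sham members, 816 (695 to 951) at day 1, 1094 (986 to 1211) at day 3 and 809 (687 to 947) at day 7. The nuclei with at least 8 proliferation genes held 36.5% of these UMIs in sham, 65.6% at day 1, 73.9% at day 3 and 51.3% at day 7. Top2a had 3, 17, 43 and 7 UMIs in the 4 libraries, or 12.6, 85.1, 125 and 36.3 CPM, and 1, 2, 6 and 1 nuclei carried them. Of the list, 7 genes had enough UMIs at day 3, all 7 were higher, and 3 were past 2-fold (Mki67, Top2a and Cenpp) beside 5.8% of all genes. Their median log2 ratio was 0.89 beside 0.02 for all genes, and the medians were 0.54 over 4 genes at day 1 and 0.37 over 3 at day 7. The day 3 median became 0.00 over the 3 genes left when the nuclei with at least 8 proliferation genes were taken out. The day 1 median then became 0.25 and the day 7 median 0.67.

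Across all genes, UMIs were summed over the members of a library, and each time point was set against sham as a ratio of CPM. A gene was read when it had at least 20 UMIs in both libraries together. At day 1, 202 of 4206 genes were at least 2-fold higher (4.8%) and 199 at least 2-fold lower (4.73%). At day 3, 312 of 5379 genes were at least 2-fold higher (5.8%) and 155 lower (2.88%). At day 7, 163 of 4106 genes were at least 2-fold higher (3.97%) and 192 lower (4.68%). The median gene read had 40 to 42 UMIs over both libraries. The 95% interval of the ratio left out 1 for 11.5% of genes at day 1, 9.72% at day 3 and 9.45% at day 7, where counting error alone would give 5% or less. The 3 comparisons share the sham library, so a chance low or high count there enters all of them.

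Zbtb16 was higher in the members after MCAO, and was named by the rule on each of the 3 days. It encodes a zinc finger repressor (PLZF) that glucocorticoids are known to induce, and lies at chr9:48654297-48836222 (GRCm38). It had 7 UMIs in 7 of 53 sham nuclei, 44 UMIs in 20 of 32 nuclei at day 1, 78 in 47 of 87 at day 3 and 25 in 15 of 42 at day 7. The level was 29.4 CPM (11.8 to 60.6) in the sham library, 220 (160 to 296) at day 1, 228 (180 to 284) at day 3 and 130 (83.9 to 191) at day 7. The sham interval lies below the other 3, which overlap each other. The ratios to sham were 7.49 (3.34 to 19.7), 7.74 (3.58 to 19.9) and 4.41 (1.85 to 12.1), and the log2 ratio stayed between 2.11 and 3.42 over 9 other ways of summing or cleaning the counts. Free RNA could give at most 18.6 CPM of it in any library. With nuclei thinned to 2000 UMIs, a UMI of Zbtb16 was seen in 0 of 51 sham nuclei, 14 of 31 at day 1, 25 of 74 at day 3 and 8 of 39 at day 7.

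Zbtb16 was also higher in the other classes, by less. In mature oligodendrocyte-like barcodes it went from 236 CPM in the sham library to 506, 519 and 443 CPM at day 1, day 3 and day 7. The ratios there were 2.14 (1.76 to 2.60), 2.19 (1.85 to 2.62) and 1.88 (1.55 to 2.28). In astrocyte-like barcodes they were 1.33 (0.808 to 2.20), 2.36 (1.61 to 3.54) and 2.33 (1.51 to 3.65), and in neuron-like barcodes 1.49, 1.57 and 1.26. A UMI of Zbtb16 was seen in 34.9% to 50.5% of neuron-like barcodes. The intervals in the members and in the mature class do not overlap at day 1 and day 3, while they do at day 7 (1.85 to 12.1 against 1.55 to 2.28). With 1 library per group the difference between classes could not be tested.

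**Figure D3:**
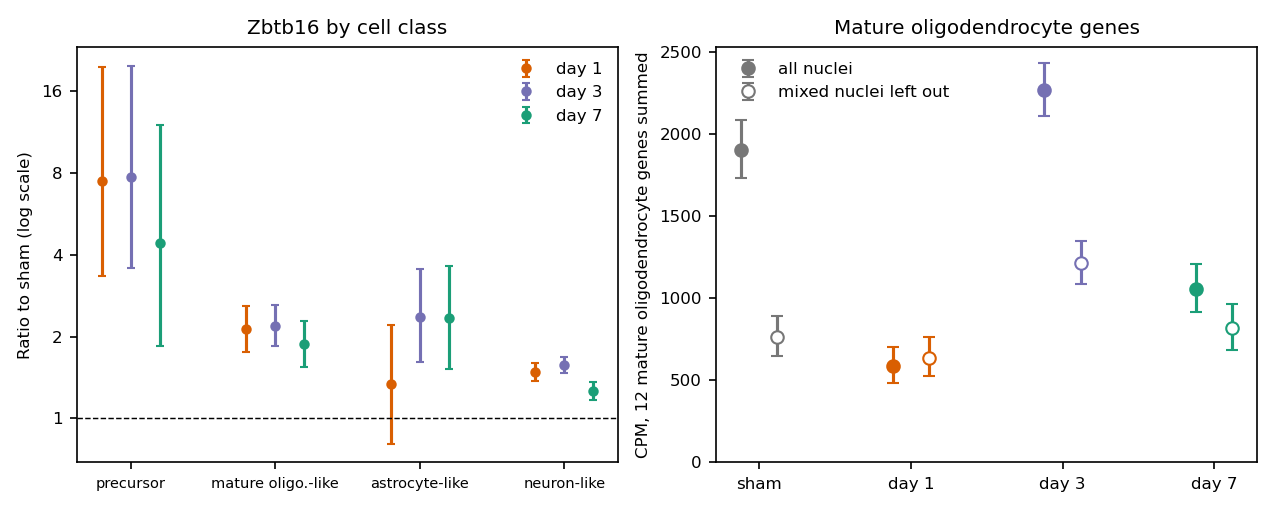
Left, the ratio of Zbtb16 CPM to sham on a log scale with 95% intervals for counting error, in precursor nuclei and 3 other classes at each time point. The precursor ratios are 7.49, 7.74 and 4.41. Right, the summed CPM of 12 mature oligodendrocyte genes in precursor nuclei, filled for all nuclei and open with mixed nuclei left out. Leaving them out takes the sham value from 1903 to 763 CPM.

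Zbtb16 belongs to the list for stress, hypoxia and glucocorticoid response, few of whose genes had enough UMIs. At day 1, 9 of its 30 genes were read, 7 were higher and 3 were past 2-fold (Hif3a, Fkbp5 and Zbtb16) beside 4.8% of all genes, with a median log2 ratio of 0.20 beside 0.01 for all genes. At day 3, 12 were read, 9 were higher and 5 were past 2-fold (Zbtb16, Hif3a, Mt1, Mt2 and Hspa5) beside 5.8% of all genes, with a median of 0.86 beside 0.02. With free RNA subtracted by neuron markers the day 1 median became 1.04 over 6 genes and the day 3 median 0.90 over 7, and by choroid plexus markers they became 0.30 over 8 and 0.31 over 9. At day 7, 7 were read, 1 was past 2-fold higher (Zbtb16) beside 3.97% of all genes and 1 past 2-fold lower (Vegfa) beside 4.68%, with a median of -0.24 beside -0.02.

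Hif3a, a hypoxia-inducible member of the HIF alpha family, was at 21.01 CPM in the sham members, 125 at day 1, 55.4 at day 3 and 10.4 at day 7. Its ratio at day 1 was 5.95 (2.24 to 19.9), from 5 and 25 UMIs. Fkbp5, the glucocorticoid-induced co-chaperone of the steroid receptor, was at 67.2 CPM in the sham members, 175 at day 1, 134 at day 3 and 57.1 at day 7. Its ratios were 2.61 (1.40 to 5.04) at day 1 and 2.00 (1.11 to 3.78) at day 3. Both overlap other annotated genes, and the strand used in counting is not given in the sources used here. Sgk1, a kinase induced by glucocorticoids, was at 193, 280, 318 and 176 CPM, and only its day 3 interval was above 1 (1.16 to 2.38). Other classes went the other way for Sgk1 at day 3. Its ratio was 0.818 (0.708 to 0.945) in mature oligodendrocyte-like barcodes and 0.573 (0.354 to 0.930) in astrocyte-like barcodes. Neuron-like barcodes had a ratio of 0.879 (0.833 to 0.928).

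In mature oligodendrocyte-like barcodes Fkbp5 was at 93.2, 487, 224 and 126 CPM, and in astrocyte-like barcodes at 28.5, 174, 117 and 144 CPM. Hif3a was at 51.3, 137, 80.8 and 38.4 CPM there, and between 187 and 231 CPM in all 4 libraries in astrocyte-like barcodes. The metallothioneins Mt1 and Mt2 and the chaperone gene Hspa5 had ratios of 2.03 (1.30 to 3.27), 3.06 (1.13 to 10.3) and 2.88 (1.23 to 7.78) at day 3. For Mt1, Mt2 and Hspa5, however, free RNA could give 314, 70.8 and 81.9 CPM at day 3, beside the 230, 64.2 and 84.6 CPM measured, so they cannot be told apart from free RNA.

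Genes that define the precursor state were mostly level or lower. Of the 20 precursor genes outside the rule, none was 2-fold higher at any time point. At day 3, 6 were higher and 14 lower, 9 had an interval below 1 beside 232 of all 5379 genes, and 1 was past 2-fold lower (Gpr17) beside 2.88% of all genes, with a median log2 ratio of -0.24 beside 0.02 for all genes. Many of these genes had more UMIs than the median gene read at day 3 (42), which narrows their intervals. Synaptic adhesion genes, 29 of them read at day 3, had 8 intervals below 1 and 5 above. At day 7, 7 were higher and 12 lower of 19, and 2 were past 2-fold lower (Olig2 and Kcnip3) beside 4.68% of all genes, with a median of -0.16 beside -0.02. At day 1, 10 were higher and 10 lower, with a median of -0.05. The day 1 interval lay above 1 for Dscam and below 1 for Xylt1, Cacng4 and Luzp2. Subtracting free RNA by neuron markers brought the day 3 and day 7 medians to -0.11 and -0.02.

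Olig2, the basic helix-loop-helix factor that specifies the lineage, was at 155 CPM (109 to 214) in the sham members, 105 (65.0 to 161) at day 1, 81.7 (54.3 to 118) at day 3 and 62.3 (32.2 to 109) at day 7. Its ratios were 0.676 (0.376 to 1.19), 0.526 (0.310 to 0.882) and 0.400 (0.190 to 0.785). Its partner Olig1 was at 122, 160, 99.2 and 98.6 CPM, with every interval across 1. Sox10 was at 374, 410, 268 and 441 CPM, and only its day 3 interval lay below 1 (0.530 to 0.972).

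Kcnip3, a calcium sensor that also binds DNA (calsenilin), was at 689 CPM (588 to 803) in the sham members, 545 (448 to 658) at day 1, 426 (360 to 501) at day 3 and 332 (256 to 424) at day 7. The sham and day 7 intervals do not overlap. Cacng4, an auxiliary subunit of AMPA receptors, was at 912, 610, 551 and 617 CPM, with ratios of 0.670, 0.605 and 0.677 and every interval below 1. Tnr and Ptprz1 had every interval across 1.

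Gpr17, the receptor of the committed state, was at 147 CPM (102 to 205) in the sham members, 90.1 (53.4 to 142) at day 1, 67.1 (42.5 to 101) at day 3 and 77.8 (43.6 to 128) at day 7. A UMI was seen in 43.4% of sham nuclei (29.8% to 57.7%), 31.3% at day 1, 19.5% at day 3 (11.8% to 29.4%) and 28.6% at day 7, and in at most 1.69% of neuron-like barcodes. With nuclei thinned to 2000 UMIs the shares were 17.6%, 12.9%, 13.5% and 20.5%, whose order differs, so no order is read from them. The other committed genes did not follow 1 course. Bcas1, a marker of newly forming oligodendrocytes, was at 840, 510, 817 and 576 CPM, with a ratio of 0.607 (0.474 to 0.775) at day 1. Tcf7l2, a Wnt effector needed for differentiation, was at 231, 105, 204 and 150 CPM. Tns3 was at 374, 235, 336 and 353 CPM.

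**Figure D4:**
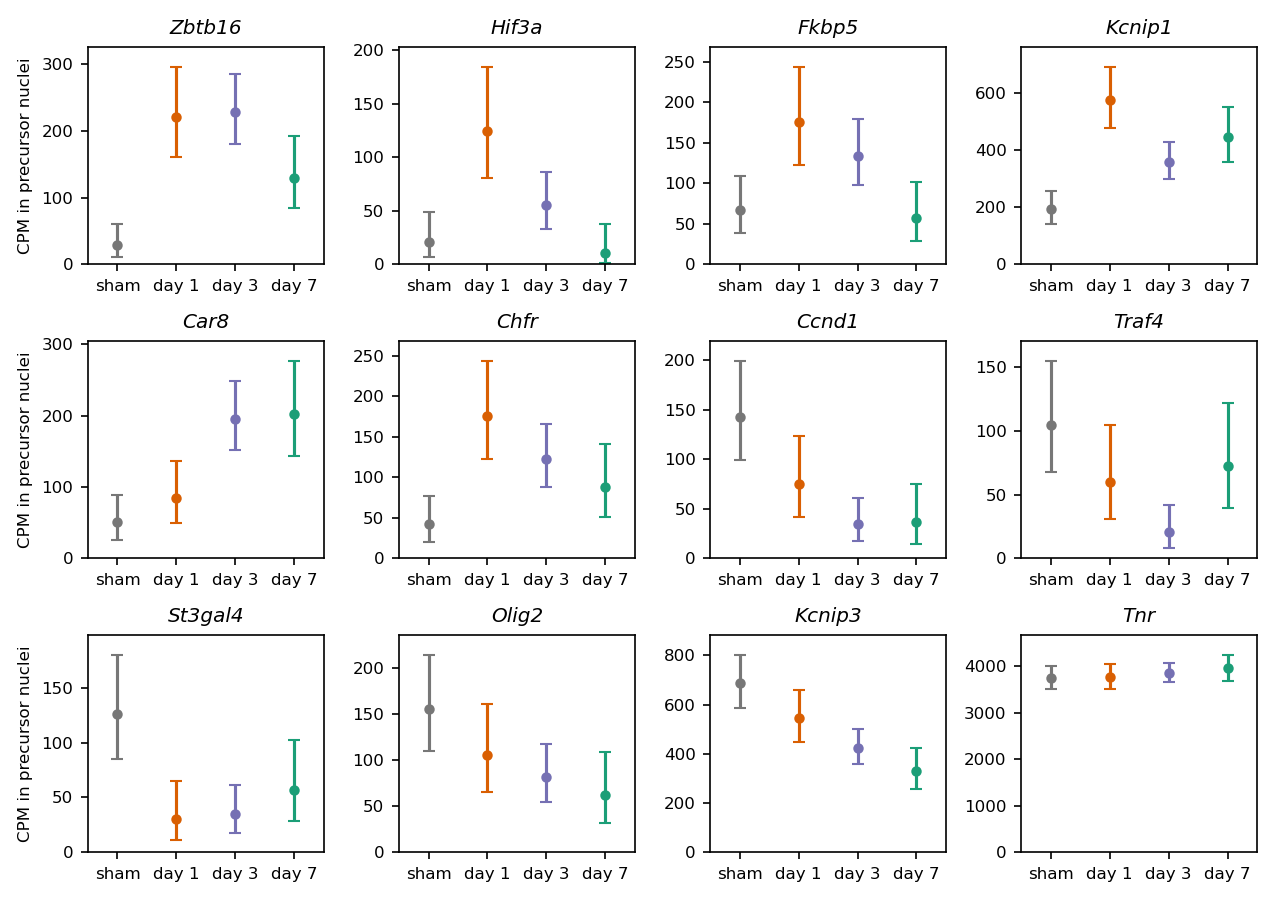
CPM of 12 genes in precursor nuclei of each library, with exact 95% Poisson intervals and a separate scale starting at 0 in each panel. Zbtb16 and Kcnip1 are higher than in sham at each time point, Chfr at day 1 and day 3, Hif3a and Fkbp5 at day 1, Car8 at day 3 and day 7. Ccnd1, St3gal4, Olig2 and Kcnip3 are lower at later time points, and Tnr stays between 3748 and 3953 CPM.

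Ccnd1 was lower after MCAO although it belongs to the cell cycle. It encodes cyclin D1, which drives entry into the cycle, and lies at chr7:144929931-144939925. It had 34 UMIs in 21 of 53 sham nuclei, 15 in 9 of 32 at day 1, 12 in 11 of 87 at day 3 and 7 in 6 of 42 at day 7. The level was 143 CPM (98.9 to 200), 75.1 (42.0 to 124), 35.0 (18.1 to 61.2) and 36.3 (14.6 to 74.8). The ratios were 0.525 (0.266 to 0.991) at day 1, 0.245 (0.116 to 0.485) at day 3 and 0.254 (0.0951 to 0.583) at day 7. At day 3 and day 7 the log2 ratio stayed between -2.45 and -1.89 over the 9 other settings. In astrocyte-like barcodes it went the other way, from 8.15 CPM in the sham library to 37.4 at day 3 and 35.9 at day 7, with ratios of 4.59 (1.63 to 17.9) and 4.41 (1.38 to 18.4). The intervals in the members and in the astrocyte-like class do not overlap on either day, and the difference was not tested.

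Of the genes with the clearest ratios, 8 each way per time point were named by a fixed rule. These 48 places held 43 genes, and 35 of the 48 stayed past 2-fold in all alternatives run for them. An alternative that left a gene at 3 UMIs or fewer in both libraries was not counted for it. The 35 include Spp1, Tpt1, Mir6236 and Ubb, for which free RNA reached the interval of the level. At day 1 the higher genes beside Zbtb16 and Hif3a were Kcnip1, Mfap3, Chfr, Fam19a1, Asic2 and Adamts9. Kcnip1, a calcium-binding subunit of A-type potassium channels, was at 193 CPM (141 to 258) in the sham members, 575 (475 to 691) at day 1, 359 (298 to 428) at day 3 and 446 (357 to 551) at day 7. A UMI of it was seen in 26 of 53 sham nuclei and in 30 of 32 at day 1. Thinned to 2000 UMIs, the counts were 19 of 51 sham nuclei and 20 of 31 at day 1. In mature oligodendrocyte-like barcodes Kcnip1 went from 2.702 CPM in sham to 24.4 at day 1 and 29.9 at day 3, with ratios of 9.01 (2.04 to 82.3) and 11.1 (2.81 to 95.6). Its day 1 ratio was 1.85 (0.889 to 3.96) in astrocyte-like barcodes and 0.912 (0.850 to 0.978) in neuron-like barcodes. Chfr, a ubiquitin ligase of a mitotic checkpoint, was at 42.0, 175, 123 and 88.2 CPM, with a day 1 ratio of 4.17 (2.02 to 9.44). Adamts9, a protease that cleaves proteoglycans, was at 29.4, 115, 61.3 and 36.3 CPM, with a day 1 ratio of 3.91 (1.63 to 10.8). Fam19a1 and Asic2, a proton-gated channel, were at 2.21 and 2.01 times sham at day 1 and fell inside 2-fold under an alternative.

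At day 1 the lower genes were Myo6, Chd3, Adam23, Acyp2, Nars2, St3gal4, Dis3l2 and Gpbp1l1, with ratios from 0.132 to 0.370. Myo6, a motor that moves towards the minus end of actin, was at 168, 35.0, 99.2 and 72.6 CPM. Chd3, a helicase of the NuRD complex, was at 218, 55.0, 125 and 150 CPM. St3gal4, a sialyltransferase, was at 126, 30.0, 35.0 and 57.1 CPM and was named at day 1 and at day 3. With nuclei thinned to 2000 UMIs its log2 ratios were -0.87 and -0.90, inside 2-fold. Nars2 and Gpbp1l1, on 2 and 3 UMIs at day 1, also came inside 2-fold when thinned, with -0.70 and -0.87.

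At day 3 the higher genes beside Zbtb16 were Acly, Gm28869, Spp1, Sdk2, Tpt1, Hist1h2be and Fgf13. Acly, which makes cytosolic acetyl-CoA for lipid synthesis, had 0 UMIs in 53 sham nuclei, 6 at day 1, 28 in 20 of 87 nuclei at day 3 and 4 at day 7. Set against a floor of 3 UMIs in the sham library, the ratio of Acly at day 3 was 6.48. The lower bound of the interval of its ratio, for counting error, was 4.93. Its level in mature oligodendrocyte-like barcodes ran from 30.9 CPM at day 3 to 41.2 CPM at day 1. Fgf13, an intracellular partner of sodium channels, was at 25.2, 70.1, 108 and 77.8 CPM, with a day 3 ratio of 4.28 (1.79 to 12.4). Spp1 and Tpt1 were at 58.4 and 108 CPM, and free RNA could give 112 and 114 CPM there. Hist1h2be has near-identical copies and Gm28869 has no position in the annotation used, so both are uncertain. Sdk2 and Gm28869 came inside 2-fold when thinned, with log2 ratios of 0.69 and 0.88.

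At day 3 the lower genes beside Ccnd1 and St3gal4 were Traf4, Arhgap6, Kbtbd3, Rassf2, Foxn2 and Arhgef7, with ratios from 0.174 to 0.364, and Arhgef7 came inside 2-fold when thinned (log2 ratio of -0.98). Traf4, an adaptor of TNF receptor signalling, was at 105 CPM (68.0 to 155), 60.0, 20.4 (8.21 to 42.1) and 72.6 CPM. Arhgap6, which turns off RhoA, was at 79.8, 20.0, 14.6 and 135 CPM, and its 26 UMIs at day 7 came from 4 nuclei.

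At day 7 the higher genes beside Zbtb16 were Car8, Snx7, Hecw1, Ppp2cb, Tenm3, Fbxl2 and Lnp. Car8, a relative of the carbonic anhydrases that binds the IP3 receptor, was at 50.4 CPM (26.1 to 88.1) in the sham members, 85.1 (49.6 to 136) at day 1, 195 (151 to 248) at day 3 and 202 (144 to 277) at day 7. A UMI of it was seen in 9 of 53, 8 of 32, 23 of 87 and 17 of 42 nuclei. It was at 1.57 to 3.42 CPM in neuron-like barcodes, and its intervals in astrocyte-like barcodes lay across 1 on each day. Without the nuclei with at least 8 proliferation genes the day 3 log2 ratio of Car8 went from 1.96 to 1.13. Tenm3, a teneurin of synapse partner choice, was at 50.4, 250, 128 and 182 CPM. Tenm3 and Fbxl2 came inside 2-fold when thinned, with log2 ratios of 0.80 and 0.90.

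At day 7 the lower genes beside Ccnd1 and Dis3l2 were Mir6236, Agtpbp1, Purb, Eno1, Patz1 and Ubb, with ratios from 0.103 to 0.239, and when thinned Patz1 and Dis3l2 came inside 2-fold (log2 ratios of -0.84 and -0.75). Agtpbp1, which shortens the polyglutamate chains of tubulin, was at 151, 90.1, 96.3 and 15.6 CPM. Mir6236 was at 471, 350, 330 and 88.2 CPM, and was lower at day 7 in neuron-like barcodes too (274 and 72.0 CPM). For Mir6236 and Ubb, free RNA could give 664 and 173 CPM in the sham library, above the 471 and 130 CPM measured there.

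Mature oligodendrocyte genes were the list with the median farthest from 0 at day 1 and day 7, and many of their UMIs lay in a few nuclei. The 12 genes summed to 1903 CPM (1732 to 2087) in the sham members, 585 (484 to 702) at day 1, 2267 (2110 to 2432) at day 3 and 1053 (913 to 1208) at day 7. At day 1 all 7 genes read were past 2-fold lower (among them Mbp, Mag, Mog and Mobp) beside 4.73% of all genes, with a median log2 ratio of -1.46 beside 0.01. At day 3, 9 were read, and Mobp and Cldn11 were past 2-fold higher beside 5.8% of all genes. At day 7, 8 were read, and Mog and St18 were past 2-fold lower beside 4.68%. A single sham nucleus held 241 of the 453 UMIs. Mixed nuclei held 64.5% of these UMIs in sham, 4.27% at day 1, 57.7% at day 3 and 32.0% at day 7, while the median member held 1 to 2. Without mixed nuclei the level was 763 CPM (650 to 891), 636 (524 to 766), 1212 (1085 to 1351) and 818 (687 to 966). The sham, day 1 and day 7 intervals then overlap and day 3 lies above them. Single nuclei still weighed on these sums, since 1 nucleus held 61 of the 112 UMIs left at day 1 and another 96 of the 329 left at day 3. With the highest remaining nucleus of each library left out too, the level was 592 CPM (491 to 707) in sham, 313 (233 to 411) at day 1, 890 (779 to 1011) at day 3 and 621 (506 to 754) at day 7. Day 1 then lay below the sham interval. With only the mixed nuclei left out, the day 1 median was -0.32 over 3 genes and the day 7 median 0.15 over 3 genes.

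Receptors, channels and adhesion genes are those through which precursors meet neurons. Of 29 glutamate and GABA receptor genes, 25, 27 and 25 were read at day 1, day 3 and day 7. Past 2-fold higher were 0, 0 and 1 of these, beside 4.8%, 5.8% and 3.97% of all genes, and lower were 3, 0 and 1, beside 4.73%, 2.88% and 4.68%. The medians were 0.16, -0.03 and 0.22. Grm5, a metabotropic glutamate receptor, was at 1592, 856, 1497 and 1121 CPM, with ratios of 0.537 (0.446 to 0.645) at day 1 and 0.704 (0.593 to 0.834) at day 7. Gria4, an AMPA receptor subunit, was at 1126, 996, 764 and 726 CPM, with ratios of 0.679 (0.570 to 0.808) at day 3 and 0.645 (0.522 to 0.794) at day 7. Grm3 was at 193, 75.1, 163 and 62.3 CPM. Gabrb1, a GABA-A receptor subunit, was at 265, 430, 385 and 446 CPM, with every interval above 1.

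Of 26 channel genes, 21 to 23 were read on each day. Kcnh7 was past 2-fold higher at day 1, and Kcnh7, Kcnip4 and Kcnj10 at day 3, beside 4.8% and 5.8% of all genes, and Kcnip3 was past 2-fold lower at day 7, beside 4.68%. Kcnh7 and Kcnip4 were then at 2.08 (1.44 to 3.08) and 2.16 (1.82 to 2.57) times sham. Both are abundant in neurons. Free RNA could give 258 of the 341 CPM of Kcnh7 and 958 of the 1587 CPM of Kcnip4, and 43.9% of the Kcnip4 UMIs came from 1 nucleus. Kcnd2, the pore of the A-type channel, was at 4277, 3367, 3700 and 3668 CPM, with every interval below 1. Of 29 adhesion genes, 27, 29 and 28 were read at day 1, day 3 and day 7. Of these 1, 2 and 1 were past 2-fold higher, near the share of all genes, and 2, 0 and 0 were lower beside 4.73%, 2.88% and 4.68% of all genes. Sema6d, a transmembrane semaphorin, was at 1311, 886, 966 and 981 CPM with every interval below 1. Lrrtm4 had a ratio of 0.682 (0.619 to 0.750) at day 3.

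Of 22 growth factor receptors and adaptors, 11 or 12 were read on each day, beside the 4.8%, 5.8% and 3.97% of all genes that were past 2-fold higher. Fgfr1 was past 2-fold higher at day 1, with 37.8, 105, 58.4 and 62.3 CPM in the 4 libraries and a ratio of 2.78 (1.22 to 6.89). Erbb4, a neuregulin receptor, was at 2807, 3282, 2748 and 3922 CPM, with ratios of 1.17 (1.05 to 1.30) at day 1 and 1.40 (1.26 to 1.55) at day 7. Of 21 ligand genes, 6 or 7 were read on each day and none of those was past 2-fold higher. Fgf1 was past 2-fold lower at day 3 and Vegfa at day 7, where 4.73%, 2.88% and 4.68% of all genes were past 2-fold lower at day 1, day 3 and day 7. Vegfa was at 130, 125, 78.8 and 46.7 CPM. Of 21 Notch and Wnt genes, 8 or 9 were read on each day, and of these Tcf7l2 was past 2-fold lower at day 1. Of 27 lineage transcription factors, 19 or 20 were read on each day. Sox4 was past 2-fold higher at day 1 and day 7, on 8 to 15 UMIs and with intervals across 1, and Sox8 at day 3 and Olig2 at day 7 were past 2-fold lower.

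Of 30 proteoglycan and matrix genes, 18, 19 and 15 were read at day 1, day 3 and day 7, and 2, 3 and 0 of these were past 2-fold higher, beside 4.8%, 5.8% and 3.97% of all genes. None of those read was past 2-fold lower. Tnc (tenascin C) had 1, 23, 4 and 0 UMIs, and the 23 UMIs at day 1 came from 4 nuclei. Col11a1 was at 122, 105, 295 and 130 CPM, with a day 3 ratio of 2.42 (1.59 to 3.79). Among 37 genes of reactive glia and interferon response, 8 were read at day 3 and 2 were past 2-fold higher (C4b and Spp1). C4b, a complement component, had 2, 7, 18 and 2 UMIs, with a day 3 ratio of 6.25 (1.50 to 55.5). Serpina3n had 1, 4, 16 and 1 UMIs. Of 12 cell cycle inhibitors and p53 targets, 1, 2 and 1 were read, and of these Ei24 at day 3 was past 2-fold higher, with an interval across 1. Of 28 cytoskeleton genes, 18 to 20 were read on each day. Rhoj, a small GTPase, was at 25.2, 100, 70.0 and 5.19 CPM, with ratios of 3.97 (1.54 to 12.1) at day 1 and 2.78 (1.11 to 8.31) at day 3, and 1 UMI at day 7. Of 10 long noncoding RNAs, 9 were read on each day. Meg3 was at 950, 1271, 1152 and 2724 CPM, with a day 7 ratio of 2.87 (2.45 to 3.37), and free RNA could give 977 CPM of it at day 7. Neat1 had 18, 5, 46 and 8 UMIs.

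**Figure D5:**
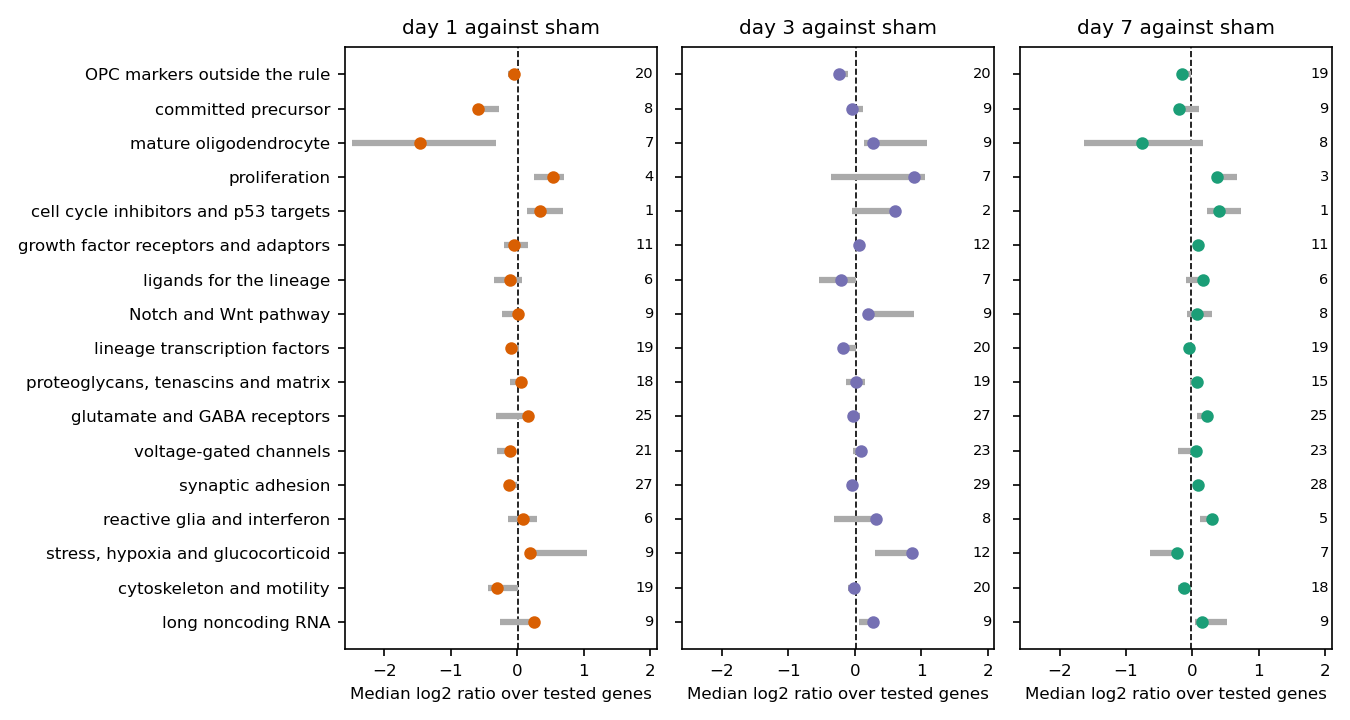
Median log2 ratio to sham over the genes read of each of 17 lists (points), with the range over the alternative settings as a grey bar, the number of genes read at the right and the median of all genes as a dashed line. The stress list stands at 0.86 at day 3, the precursor genes at -0.24, and the widest bars are those of the mature oligodendrocyte list at day 1 and day 7 and of the proliferation list at day 3.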

How the data were processed

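Droplet-based 3′ libraries of nuclei were mapped by the authors to GRCm38 with STAR 2.7.3a, counting exonic and intronic reads against a GENCODE annotation and collapsing molecular identifiers, per the submitters' processing notes and the study's methods. The deposited values are raw counts of UMIs per gene and barcode, with no filter on barcodes and no removal of free RNA. From these, members were selected by the marker rule, their UMIs were summed per library and scaled to CPM, with exact Poisson intervals, and ratios to sham were given exact conditional binomial intervals at 95%. Genes with at least 20 UMIs over both libraries were read, sums under 3 UMIs were set to 3 for the 2-fold count, and lists were described by counts and medians. Other barcodes were put in classes by marker genes (at least 4 UMIs and 4 times the share in free RNA, neurons at 0.3% of UMIs). Named genes were the 8 each way per comparison whose interval bound lay farthest from 1, with UMIs in at least 5 nuclei of the higher library and no nucleus above 25% of them, plus list genes whose interval left out 1 or that were among the 4 highest of a list. From that second group the text names a part and counts the rest. The members and the lists were chosen with earlier results of these data known. The scripts were tested on simulated data. Python 3.11.15, scipy 1.17.1 and scanpy (Scrublet) were used. The alternatives numbered 13, with 4 more chosen after seeing the data. No test was run, because each group had 1 library.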

Additional observations from a re-analysis of the deposited data

Results flagged for a closer look

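Mobp, Epha6 and the unplaced transcript Gm28928 moved past 2-fold in opposite directions on different days, with the counting interval on the same side of 1 each time, and these differences were not tested. Mobp, a myelin gene, was at 0.362 times sham at day 1 and 2.11 times at day 3. Without mixed nuclei its day 1 log2 ratio was 0.48. Epha6, an ephrin receptor, was at 0.362 times sham at day 1 and 2.14 times at day 3. Gm28928 was at 6.50 times sham at day 1 and 0.412 times at day 7. The causes were not tested.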

How the results depend on the processing

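The share of precursor nuclei was highest at day 1 and lowest at day 3 in each setting, and in the reported setting the 4 intervals overlapped. Among barcodes that were not neuron-like they were 6.74% in sham, 7.49% at day 1, 6.39% at day 3 and 6.79% at day 7, and with 6 marker UMIs required the day 3 share was 1.69%. The share with at least 2 proliferation genes became 7.84%, 9.68%, 13.5% and 12.8% with nuclei thinned to 2000 UMIs, and 1.89%, 3.13%, 4.60% and 2.38% with at least 8 genes. The Gpr17 share became 17.6% in sham and 12.9% at day 1 when thinned. Counts of genes past 2-fold depended on the minimum read. With at least 10 UMIs they were 595 higher and 582 lower at day 1, 760 and 488 at day 3, and 490 and 624 at day 7. With at least 50 UMIs they were 40 and 35, 36 and 8, and 19 and 21. With thinned nuclei they were 78 and 84, 138 and 78, and 76 and 81. Fewer genes are read at a higher minimum and in thinned nuclei. Of 3641 log2 ratios of single genes recomputed under an alternative, 200 had the opposite sign, and 5 of these belonged to genes reported as past 2-fold. Without mixed nuclei the day 1 values were 0.039 for Prr5l, 0.48 for Mobp, 0.26 for Neat1 and -0.25 for Hecw1, and as the mean of nuclei -0.12 for Hecw1. Of 454 list medians, 53 had the opposite sign, and 6 of these belonged to lists whose genes lay mostly on one side of 0 as reported. These 6 were the mature oligodendrocyte list at day 7 without mixed nuclei (0.15), the proliferation list at day 3 in thinned nuclei (-0.36, over 2 genes), the lineage transcription factors at day 3 with free RNA subtracted by neuron markers (0.014), and the long noncoding RNAs at day 1 without mixed nuclei (-0.27), in thinned nuclei (-0.046) and as the mean of nuclei (-0.021). Apart from the loss of genes, the cause was not tested. Subtracting free RNA by choroid plexus markers, leaving out the nuclei with at least 8 proliferation genes, the limit of 8 genes, and leaving out the highest remaining nucleus for the mature oligodendrocyte sum were added after seeing the data. No paired analysis was possible because each group had 1 library.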
